A study of Mus musculus with 6 samples.

Results

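The 69 genes described here encode 5 families of liver enzymes that oxidise, reduce or hydrolyse small molecules. They were taken by name from the 55573 genes of the deposited table: names beginning with Adh, Aldh, Ces or Fmo and a digit, or with Akr1 and a letter, without a hyphen. This gave 6 alcohol dehydrogenase (Adh), 21 aldehyde dehydrogenase (Aldh), 16 aldo-keto reductase (Akr1), 19 carboxylesterase (Ces) and 7 flavin monooxygenase (Fmo) genes. The rule left out Adh6-ps1 and Ces2d-ps.

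Liver of generation 3 mice was profiled by polyA RNA sequencing, with 3 libraries in each of 2 groups. The group named DKO had the genotype mTR-/-Wrn-/-, that is, without the telomerase RNA and the RecQ helicase Wrn. The group named p21TKO had the genotype p21-/-mTR-/-Wrn-/-, so it shared both of those deletions and lacked the cyclin-dependent kinase inhibitor p21 (Cdkn1a) as well. All mice received normal feed, and no group with intact mTR and Wrn is among these libraries. The sample titles carry the mark 2M, which is not explained. The p21TKO mice are described as already having signs of premature ageing. The labels give no sex and do not tie each library to its own animal, and the p-values below cover the spread between libraries only. The stated purpose was to find molecular pathways that p21 loss alters.

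As background, alcohol dehydrogenases turn alcohols into aldehydes in the cytosol, and aldehyde dehydrogenases turn aldehydes into acids in the cytosol, the mitochondria or the endoplasmic reticulum. Aldo-keto reductases work in the other direction, reducing carbonyl groups of sugars, steroids and lipid aldehydes with NADPH. Carboxylesterases split esters of drugs and stored lipids, mostly in the endoplasmic reticulum. Flavin monooxygenases add oxygen to nitrogen and sulfur atoms of drugs and of diet-derived amines. All 5 families are known for high expression in hepatocytes, the main cell type of the liver.

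Several members are near-identical copies, which matters for how far their values can be read apart. Over the coding sequences of all 69 members (GENCODE M21, GRCm38), 7 of 537 within-family pairs were at least 90% identical over the aligned bases. Ces3a and Ces3b were 95.3% identical, Akr1c12 and Akr1c13 96.2%, and Aldh1a1 and Aldh1a7 91.6%. The other pairs were Akr1c6 with Akr1c20 (92.3%), Ces2b with Ces2c (92.1%), Ces1b with Ces1c (91.1%) and Aldh3b2 with Aldh3b3 (90.6%). For the first 3 pairs named, 60 coding bases inside 1 exon are shown with the differing bases in capitals, since in such a stretch a read tells the copies apart.
Ces3a, exon 6, chr8:105051766-105051825, plus strand: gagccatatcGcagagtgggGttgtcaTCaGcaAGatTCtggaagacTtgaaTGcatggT
Ces3b, exon 6, chr8:105086856-105086915, plus strand: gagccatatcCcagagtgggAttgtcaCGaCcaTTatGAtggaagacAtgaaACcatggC
Akr1c12, exon 4, chr13:4274365-4274424, minus strand: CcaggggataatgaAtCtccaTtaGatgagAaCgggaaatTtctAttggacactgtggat
Akr1c13, exon 4, chr13:4196433-4196492, plus strand: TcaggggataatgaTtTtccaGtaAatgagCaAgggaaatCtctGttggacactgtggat
Aldh1a1, exon 4, chr19:20619973-20620032, plus strand: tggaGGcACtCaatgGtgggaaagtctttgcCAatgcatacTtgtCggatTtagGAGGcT
Aldh1a7, exon 4, chr19:20719252-20719311, minus strand: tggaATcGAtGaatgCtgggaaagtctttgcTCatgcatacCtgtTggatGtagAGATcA
Outside such stretches the copies are alike for long runs. The longest identical run was 194 bases between Ces3a and Ces3b, 228 bases between Akr1c12 and Akr1c13 and 100 bases between Aldh1a1 and Aldh1a7. It was 65 bases between Akr1c6 and Akr1c20 and was not measured for the remaining pairs. Reads within these runs could be assigned to either copy or left out. How such reads were counted is not stated, so the values of single copies are uncertain. The same caution is kept for all 7 pairs.

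Totals of 19363284 to 27061290 reads per library were inferred from the FPKM (fragments scaled to gene length and library size), with 18271 to 19535 genes above 0. Reads recovered for genes matched to GENCODE M21 fell short of these totals unevenly. They were 22947647 of 27061290 in p21TKO replicate 3 and 20720449 of 24027504 in DKO replicate 1, but 21481294 of 21516838 in DKO replicate 2. The cause of this gap was not tested. Hepatocyte markers were abundant in every library, with 10 of 10 tested. Their summed level was 44297 to 55763 FPKM in DKO and 58137 to 64579 FPKM in p21TKO. Of the 10, 7 had a higher and 3 a lower mean log2(FPKM + 1) in p21TKO. Fgb is counted both here and among the acute phase genes below. Cdkn1a transcripts stood at 0.405 to 1.79 FPKM in DKO and 1.41 to 11.05 FPKM in the libraries labelled p21TKO, so the targeted gene was not lower there. The labels do not state which part of the gene was deleted, and these values cannot check the deletion. Every direction below rests on the labels. Ddx3y, on the Y chromosome, was listed at 0 in DKO replicate 1 and in p21TKO replicates 2 and 3 and at 11.4 to 12.6 FPKM in the remaining libraries, so 2 of 3 DKO libraries but 1 of 3 p21TKO libraries held Y-linked transcripts. Acute phase genes summed to 12585 to 13817 FPKM in DKO and to 7771, 71337 and 40775 FPKM in p21TKO replicates 1 to 3. Neutrophil markers (8 genes, 4 of them tested) summed to 10.05 to 28.4 FPKM in DKO and to 24.02, 536 and 217 FPKM in the same 3 libraries. p21TKO replicates 2 and 3 thus stood apart from the other 4 libraries in both lists and held no Y-linked transcripts.

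Most of the expressed members had lower levels in p21TKO than in DKO, and no single gene passed the test. Of the 69 members, 45 had a mean of at least 1 FPKM over the 6 libraries and were tested, 24 were below that level, and 5 of these (Akr1c21, Akr1cl, Ces2f, Ces5a and Fmo9) were listed at 0 in every library. Of the 45, 38 had a lower and 7 a higher mean log2(FPKM + 1) in p21TKO, with a median difference of -0.66, while 49.8% of all 9538 genes tested were lower and their median difference was 0.0016. With limma and Benjamini-Hochberg adjustment over all genes, 0 of the 45 passed an adjusted p of 0.05, against 0.0734% of all genes tested (7 genes). At an unadjusted limma p under 0.05 there were 7 members, all lower, against 5.29% of all genes tested that were lower and 9.38% in either direction. limma voom on recovered reads also called 0 members, against 1 of all genes tested. It had 7 members at an unadjusted p under 0.05, for which no share over all genes is given. The median of the tested members is a description, since 2 of them, Aldh3b1 and Ces4a, averaged under 1 FPKM in one group and passed the filter through the other. In whole tissue, fewer cells of a type and less RNA per cell cannot be told apart.

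**Figure D1:**
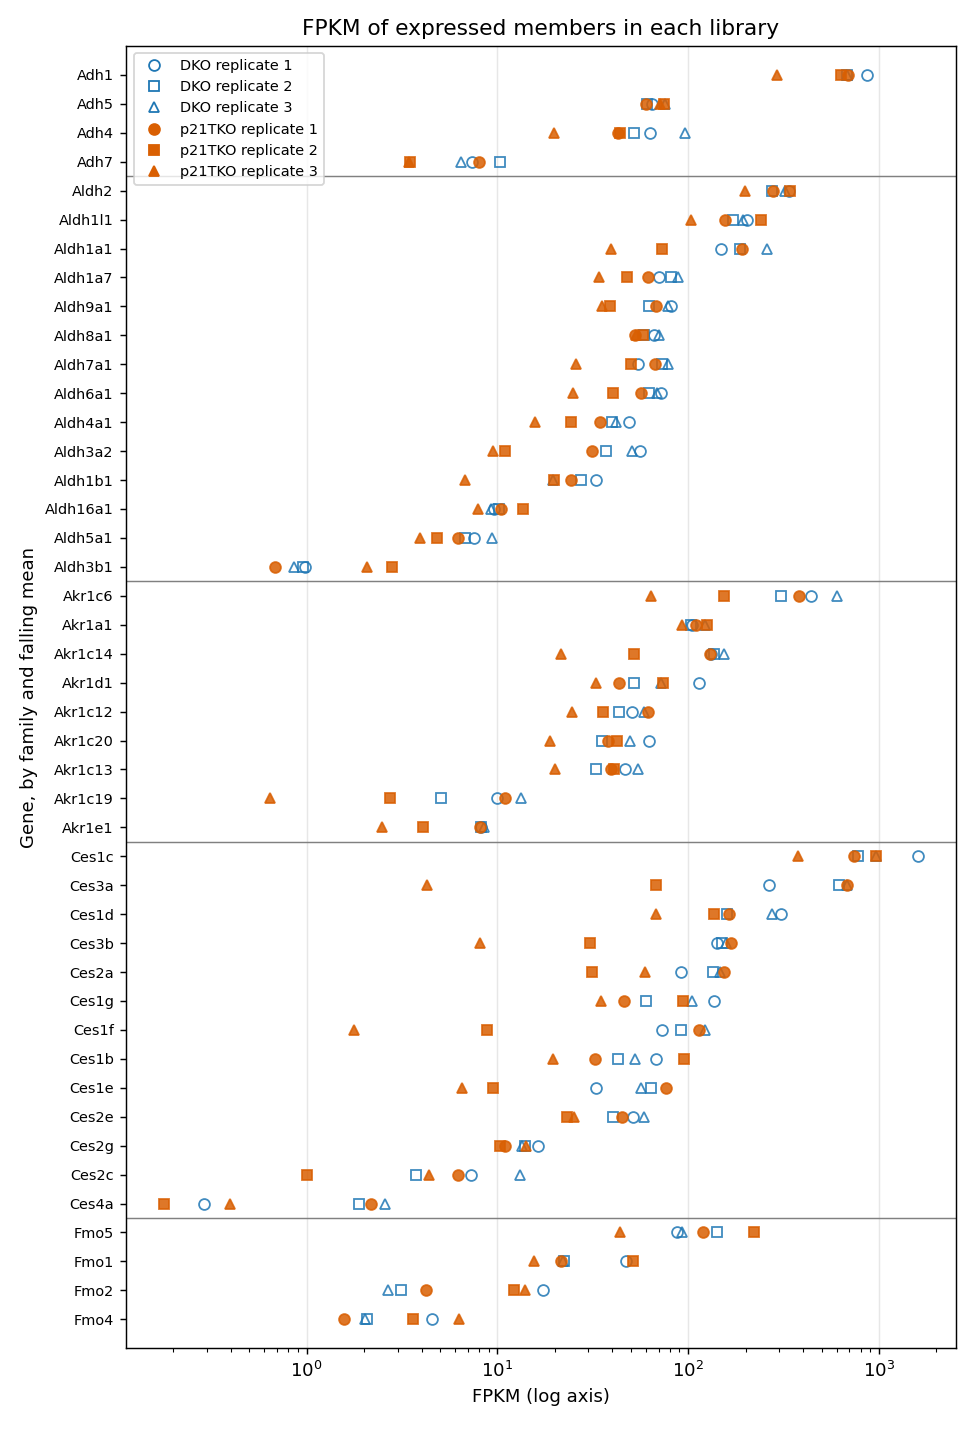
FPKM on a log axis for the tested members but 1, by family and falling mean, with 1 point per library (open blue, DKO; filled orange, p21TKO; shapes mark replicates 1 to 3). Filled triangles, p21TKO replicate 3, lie to the left in most rows, and Ces3a spans from 4.29 to 683 FPKM.

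The 3 p21TKO libraries differed among themselves. p21TKO replicate 3 lay below every DKO library for 37 of the 45 members, against 36.6% of all genes tested. In p21TKO replicate 2 this was so for 27 members, against 35% of all genes, and in p21TKO replicate 1 for 19 members, against 27.3%. The libraries lay above every DKO library for 3 members in replicate 3, against 34.9% of all genes, 9 in replicate 2, against 30%, and 5 in replicate 1, against 29.4%. The summed FPKM of all 69 members was 6309, 4941 and 6063 in DKO replicates 1 to 3 and 5047, 4434 and 2249 in p21TKO replicates 1 to 3. All 3 p21TKO values lay below every DKO value for 9 members, against 8.49% of all genes tested, and above every DKO value for 0 members, against 6.93%. The 9 were Adh4, Aldh1a7, Aldh3a2, Aldh4a1, Aldh5a1, Aldh6a1, Aldh8a1, Akr1c14 and Akr1e1.

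**Figure D2:**
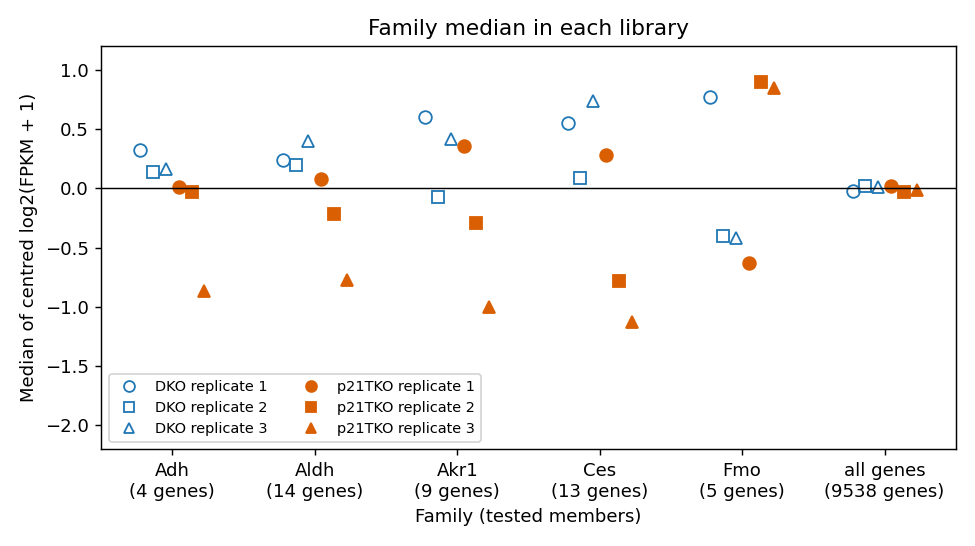
Median over the tested members of each family of log2(FPKM + 1) after subtracting each gene's mean over the 6 libraries, with 1 point per library and all 9538 tested genes at the right. In the Ces family p21TKO replicates 2 and 3 stand at -0.78 and -1.13 and DKO replicates 1 to 3 at 0.55, 0.09 and 0.73.

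Leaving out p21TKO replicate 1 changed the number of calls. Without it, limma called 7 of the 45 members at an adjusted p of 0.05, against 5.19% of all genes tested (495 genes). Of these members 6 were lower, against 2.83% of all genes, and 1 was higher, against 2.36%. Lower were Aldh3a2 (log2 difference -2.11, limma adjusted p = 0.0132), Ces1f (-4.17, 0.0159), Ces1e (-2.497, 0.0183), Ces3b (-3.16, 0.0271), Akr1e1 (-1.15, 0.0342) and Akr1c14 (-2.04, 0.0425), and Aldh3b1 was higher (0.82, 0.0450). Aldh3b1 averaged 0.929 FPKM in DKO and passed the filter only through p21TKO, where it is high, so nothing is read from its call. The p21TKO libraries that remain are the ones without Y-linked transcripts and with the highest acute phase and neutrophil sums. The part of the acute phase and neutrophil sums in the differences was not tested. With a term for Y-linked transcripts over all 6 libraries, limma called 0 members, against 9 of all genes tested. The median difference of the 45 was -0.58. In this fit 1 member had an unadjusted p under 0.05, for which no share over all genes is given.

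Among the alcohol dehydrogenases, Adh4 had the largest difference and Adh5 had almost none. All 6 genes lie within 237.7 kb of chromosome 3 (138217760 to 138455499, GRCm38), and 4 were tested, 3 lower and 1 higher (median difference -0.60). Adh1, the class I enzyme that oxidises ethanol, stood at 863, 677 and 682 FPKM in DKO replicates 1 to 3 and 688, 633 and 292 FPKM in p21TKO replicates 1 to 3. It held 75.6% to 86.4% of the family's summed FPKM in each library, and only p21TKO replicate 3 lay far from the rest. Its log2 difference was -0.55 (SE 0.41, limma adjusted p = 0.649).

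Adh4, the class II enzyme active on retinol and long-chain alcohols, stood at 63.4, 51.9 and 96.0 FPKM in DKO and 42.9, 43.7 and 19.8 FPKM in p21TKO. The groups did not overlap, with means of 70.4 ± 22.9 and 35.5 ± 13.6 FPKM (SD, n = 3 each), and the log2 difference was -1.01 (SE 0.39, limma adjusted p = 0.523). Adh7, the class IV enzyme best known from stomach and from retinol oxidation, stood at 7.36, 10.4 and 6.45 FPKM against 8.01, 3.50 and 3.43 FPKM. Here p21TKO replicate 1 lay among the DKO libraries and the other p21TKO libraries lay below them. Adh5, the formaldehyde dehydrogenase that uses glutathione, stood at 64.9, 61.1 and 75.4 FPKM in DKO and 59.98, 74.7 and 70.9 FPKM in p21TKO, and the groups overlapped throughout (0.03, SE 0.23, limma adjusted p = 0.971). Adh6a and Adh6b, between Adh1 and Adh4, were below 0.1 FPKM in every library.

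The aldehyde dehydrogenases are scattered over the genome, and 12 of the 14 tested were lower (median difference -0.64). Aldh2, the mitochondrial enzyme that removes acetaldehyde, had the highest level and stood at 337, 274 and 321 FPKM in DKO and 278, 343 and 198 FPKM in p21TKO. The groups overlapped, and the log2 difference was -0.22 (SE 0.31, limma adjusted p = 0.812). Aldh1l1, a cytosolic enzyme of folate metabolism, stood at 203, 171 and 193 FPKM against 155, 240.4 and 103 FPKM, with p21TKO libraries on both sides of DKO. In both of these abundant genes p21TKO replicate 2 was the highest of the 6 libraries.

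The retinal dehydrogenase gene Aldh1a1 and its copy Aldh1a7 lie beside each other on chromosome 19 (20492715 to 20727562). Aldh1a1 stood at 149, 187 and 258 FPKM in DKO and 192, 73.3 and 39.4 FPKM in p21TKO (-1.22, SE 0.58, limma adjusted p = 0.536). For this gene p21TKO replicate 1 lay within the DKO range. Aldh1a7 stood at 70.1, 80.9 and 88.1 FPKM against 61.4, 47.6 and 34.0 FPKM, without overlap (-0.76, SE 0.28, limma adjusted p = 0.523). The retinal dehydrogenases of other tissues, Aldh1a2 and Aldh1a3, stayed under 1 FPKM in every library.

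Aldh3a2, the fatty aldehyde dehydrogenase of the endoplasmic reticulum (chromosome 11, 61223417 to 61267464), had the smallest p of all members. It stood at 56.0, 36.8 and 50.8 FPKM in DKO and 31.4, 11.01 and 9.44 FPKM in p21TKO. All p21TKO values were below all DKO values, and p21TKO replicate 1 was the nearest to them. The group means were 47.9 ± 9.90 and 17.3 ± 12.3 FPKM (SD, n = 3 each), a 2.77-fold ratio, with a log2 difference of -1.59 (SE 0.46, unadjusted p = 0.0107, limma adjusted p = 0.523).

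Aldehyde dehydrogenases of amino acid and amine metabolism had smaller differences in the same direction. Aldh4a1, which acts in proline breakdown, stood at 48.8, 40.1 and 41.8 FPKM against 34.4, 24.3 and 15.7 FPKM (-0.85, SE 0.31, limma adjusted p = 0.523). Aldh5a1, which removes succinic semialdehyde, stood at 7.54, 6.77 and 9.40 FPKM against 6.25, 4.84 and 3.93 FPKM (-0.58, SE 0.21, limma adjusted p = 0.523). In both genes the groups did not overlap and p21TKO replicate 3 was the lowest library. Aldh6a1, of valine breakdown, and Aldh8a1, of tryptophan breakdown, were also lower without overlap, with differences of -0.79 and -0.25. Aldh7a1, of lysine breakdown, Aldh9a1, of carnitine synthesis, and Aldh1b1, a mitochondrial relative of Aldh2, overlapped between the groups, with differences of -0.60, -0.69 and -0.76. The members with higher values were Aldh16a1 (0.10) and Aldh3b1 (0.48), the latter at 0.976, 0.954 and 0.858 FPKM in DKO and 0.682, 2.79 and 2.08 FPKM in p21TKO.

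All 9 tested aldo-keto reductases had lower values in p21TKO (median difference -0.66), and p21TKO replicate 3 was the lowest library for all 9. Of these, 7 belong to a block of 9 genes on chromosome 13 (4049011 to 4609174). Akr1c6, a steroid dehydrogenase of mouse liver, stood at 441, 306 and 604 FPKM in DKO and 382, 154 and 64.0 FPKM in p21TKO (-1.47, SE 0.66, limma adjusted p = 0.531). Its share of the family's summed FPKM was 42.3% to 53.0% in DKO and 46.4%, 28.8% and 22.6% in p21TKO. The first p21TKO library was inside the DKO range and the others were below it.

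Akr1c14, a dehydrogenase of steroid hormones, stood at 132, 136 and 155 FPKM in DKO and 129.9, 51.8 and 21.6 FPKM in p21TKO. The groups did not overlap, but p21TKO replicate 1 lay just under the lowest DKO library (-1.39, SE 0.60, limma adjusted p = 0.523). Akr1e1, a sugar reductase gene at the end of the same block, was tight in DKO at 8.24, 8.22 and 8.48 FPKM and stood at 8.14, 4.07 and 2.497 FPKM in p21TKO (-0.77, SE 0.34, limma adjusted p = 0.527). Akr1c19 had the widest range in the block, from 0.640 FPKM in p21TKO replicate 3 to 13.2 FPKM in DKO replicate 3. The near-identical pair Akr1c12 and Akr1c13 had differences of -0.41 and -0.44.

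Outside that block, Akr1d1, the steroid reductase of bile acid synthesis, stood at 113, 52.3 and 71.9 FPKM in DKO and 43.3, 73.4 and 33.0 FPKM in p21TKO (-0.66, SE 0.41, limma adjusted p = 0.597). It was one of the members in which p21TKO replicate 2 lay within the DKO range. Akr1a1, the general aldehyde reductase, was among the least variable, at 104, 104 and 123 FPKM against 109.6, 125 and 92.5 FPKM (-0.02, SE 0.24, limma adjusted p = 0.980). The Akr1b genes, which include aldose reductase (Akr1b3), averaged under 1 FPKM. Among them Akr1b7 stood at 1.56 FPKM in DKO replicate 1 and 1.12 and 2.91 FPKM in p21TKO replicates 2 and 3, with 48, 33 and 101 reads, and had 1 to 4 reads in the libraries with Y-linked transcripts.

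**Figure D3:**
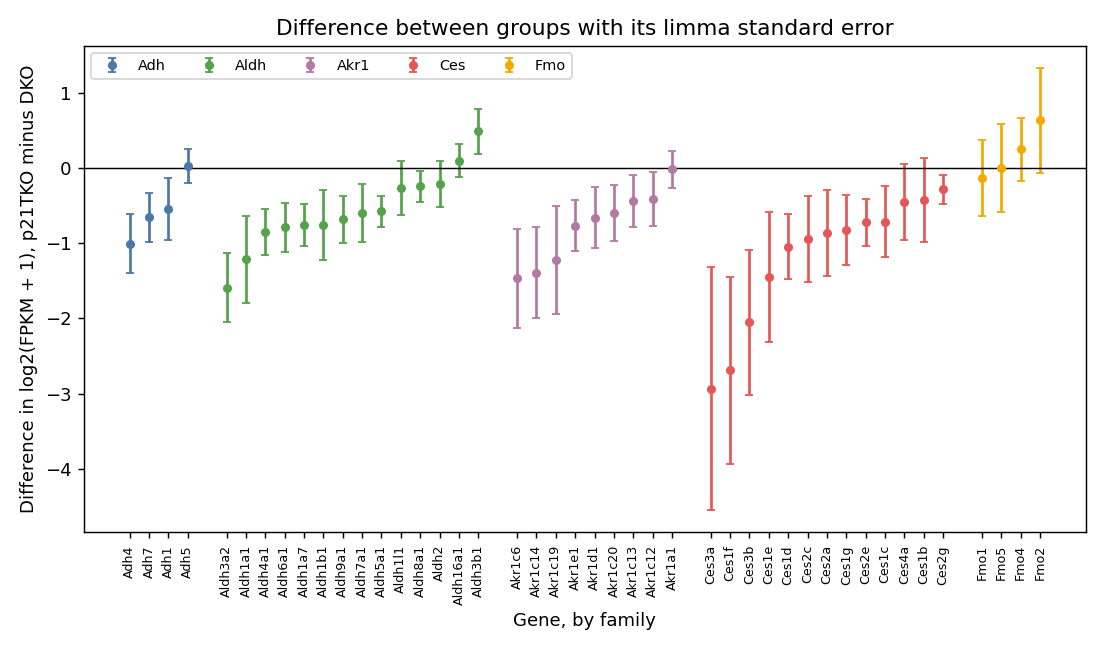
Difference in log2(FPKM + 1), p21TKO minus DKO, for each tested member but 1, with the limma standard error as the bar, coloured by family. Ces3a, Ces1f and Ces3b reach -2.94, -2.69 and -2.05, and Akr1a1, Adh5 and Fmo5 lie near 0.

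Carboxylesterases had the lowest family median, -0.87, and all 13 tested genes were lower, but none separated the groups in every library. The 19 genes form 2 blocks on chromosome 8, Ces1 genes with Ces5a (93020214 to 93535830) and Ces2, Ces3 and Ces4a genes (104734003 to 105150109). Ces1c, which encodes the esterase secreted into mouse plasma, had the highest mean level of all members, at 1598, 775 and 969 FPKM in DKO and 739.8, 960.3 and 378 FPKM in p21TKO (-0.72, SE 0.47, limma adjusted p = 0.610). p21TKO replicate 2 lay among the DKO libraries.

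The widest ranges among the esterases were in Ces3a, Ces3b and Ces1f, in which p21TKO replicate 1 was high and p21TKO replicates 2 and 3 were far below every DKO library. Ces3a, a liver esterase, stood at 265, 615 and 683 FPKM in DKO and 682, 68.0 and 4.29 FPKM in p21TKO, a 159-fold range. The groups overlapped, with means of 521 ± 224 and 251 ± 374 FPKM (SD, n = 3 each), and the log2 difference was -2.94 (SE 1.61, limma adjusted p = 0.573). Ces3b, its copy in the same block, stood at 142, 150.4 and 157 FPKM in DKO and 168, 30.5 and 8.08 FPKM in p21TKO (-2.05, SE 0.96, limma adjusted p = 0.535). The copies were low in the same libraries, within the limit on reading them apart given above.

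Ces1f, an esterase linked to lipid metabolism (chromosome 8, 93256236 to 93279747), stood at 73.2, 91.4 and 122 FPKM in DKO and 113, 8.86 and 1.78 FPKM in p21TKO. The lowest value still rested on 158 reads, against 5781 to 8886 reads in the DKO libraries. Its log2 difference was -2.69 (SE 1.24, limma adjusted p = 0.531). Ces1e was also lowest in p21TKO replicates 3 and 2, with 32.7, 64.1 and 56.4 FPKM against 76.8, 9.51 and 6.50 FPKM.

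Ces1d, a triacylglycerol hydrolase of hepatocytes, had the smallest p of the family. It stood at 306, 161 and 276 FPKM in DKO and 164, 137 and 67.7 FPKM in p21TKO (-1.05, SE 0.43, unadjusted p = 0.0482, limma adjusted p = 0.523). Only DKO replicate 2 lay among the p21TKO libraries. Ces2e, an esterase of the second block, stood at 51.6, 40.2 and 58.8 FPKM against 44.7, 23.0 and 25.2 FPKM (-0.72, SE 0.32, limma adjusted p = 0.526). Ces1b and Ces1g, neighbours of Ces1c and Ces1f, were not low in p21TKO replicate 2, where they stood at 94.8 and 93.4 FPKM. In p21TKO replicates 1 and 3 both genes lay below every DKO library, Ces1b at 32.4 and 19.4 FPKM and Ces1g at 45.9 and 34.7 FPKM. Ces2b, at 1.2001 FPKM in DKO replicate 2, was under 0.5 FPKM in all other libraries.

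The promoters of Ces2a and Ces3b are shown as examples from the second block of genes low in p21TKO replicates 2 and 3. This choice was made after their values were seen. Ces2e was also low in both libraries and has a promoter window that is not shown, and no promoter was found for Ces3a. Shown are the 250 bases before the RefSeq start site (GRCm38.p6), with matches to 6 searched motifs in capitals.
Ces2a, chr8:104733753-104734002, plus strand: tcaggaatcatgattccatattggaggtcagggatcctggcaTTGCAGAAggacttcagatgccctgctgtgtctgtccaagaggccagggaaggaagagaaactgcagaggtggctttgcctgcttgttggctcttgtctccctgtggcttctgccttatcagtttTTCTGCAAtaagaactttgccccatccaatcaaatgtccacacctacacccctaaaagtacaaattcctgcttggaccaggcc
Ces3b, chr8:105083505-105083754, plus strand: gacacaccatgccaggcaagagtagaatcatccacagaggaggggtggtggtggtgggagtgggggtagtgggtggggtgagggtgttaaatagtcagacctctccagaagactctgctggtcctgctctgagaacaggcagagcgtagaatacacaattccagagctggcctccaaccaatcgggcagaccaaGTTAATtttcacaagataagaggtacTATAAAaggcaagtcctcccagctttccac
Ces2a held TTNNGCAA, a C/EBP motif, at -208 and -83 bases, and Ces3b held the HNF1 motif GTTAAT at -56 and the TATA box TATAAA at -30. Promoters were found for 54 of the 69 members, in 59 windows. On both strands TTNNGCAA was in 22% of these windows and 9.56% of all 32851 windows, TATAAA in 18.6% and 12.4%, and GTTAAT in 8.47% and 6.43%. The FOXA motif TGTTTAC was in 10.2% and 3.17%, the STAT motif TTCNNNGAA in 11.9% and 7.02%, and the antioxidant response core TGACNNNGC in 6.78% and 10.2%. No matches of different motifs overlapped in the member windows. These are matches of letters only. The windows are not independent, so the shares do not count separate sites. Overlapping windows of Ces1b hold the same TTNNGCAA match, and the copies Akr1c12 and Akr1c13 both hold TGTTTAC.

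Of 5 tested flavin monooxygenase genes 4 had higher and 1 lower values in p21TKO (median difference 0.25), and values for 4 of the 5 are given here. Their levels were not ordered by the labelled groups, and for Fmo2 and Fmo4 they were ordered by the presence of Y-linked transcripts. Fmo5 is counted as higher with a log2 difference of only 0.0004 (SE 0.59).

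Lists of genes known to be sex-biased in mouse liver were read beside this family. The 14 female-biased genes summed to 1658 FPKM in DKO replicate 1, to 413 and 128 FPKM in p21TKO replicates 2 and 3, and to 2.59 to 8.19 FPKM in the libraries with Y-linked transcripts. The 15 male-biased genes summed to 9023 to 18206 FPKM in the libraries with Y-linked transcripts and to 465 to 1080 FPKM in the others.

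Fmo2, known from lung, and Fmo4 lie on chromosome 1 in a block of 191.3 kb, with Fmo1 and Fmo6. Fmo2 stood at 17.3, 3.11 and 2.68 FPKM in DKO and 4.24, 12.1 and 13.9 FPKM in p21TKO. Fmo4 stood at 4.51, 2.07 and 2.03 FPKM against 1.56, 3.60 and 6.27 FPKM. In both genes all 3 libraries without Y-linked transcripts were above the other 3. Fmo1, a drug-oxidising enzyme, stood at 47.2, 22.3 and 22.2 FPKM in DKO and 21.5, 51.5 and 15.6 FPKM in p21TKO, where p21TKO replicate 3 was the lowest. Fmo5, on chromosome 3 and the most abundant of these 4 in every library, stood at 87.4, 141 and 93.2 FPKM against 119, 219.96 and 43.6 FPKM. The smallest limma adjusted p of these 4 genes was 0.756, for Fmo2 (log2 difference 0.63, SE 0.70).

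**Figure D4:**
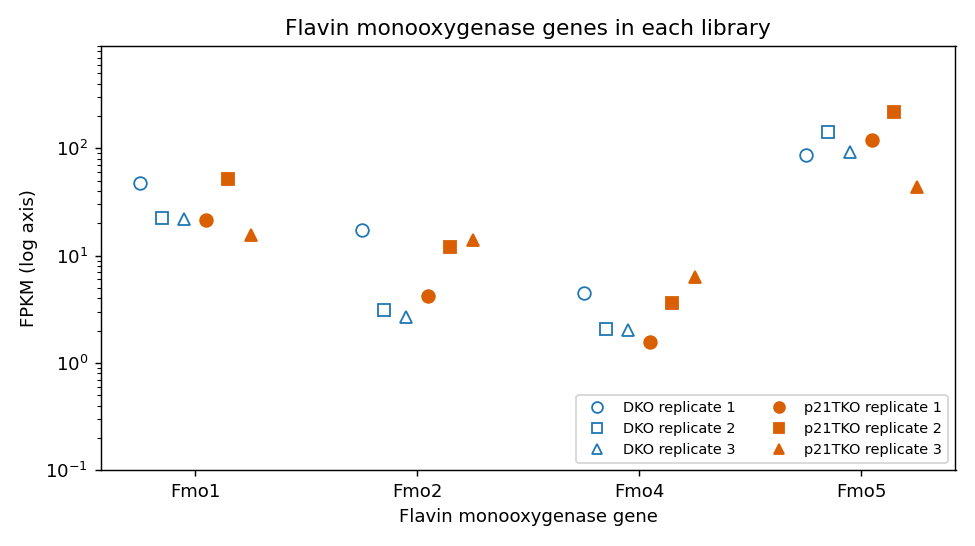
FPKM on a log axis of 4 tested flavin monooxygenase genes, with 1 point per library. For Fmo2 the 3 libraries without Y-linked transcripts lie at 12.1 to 17.3 FPKM and the 3 with them at 2.68 to 4.24 FPKM.

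Because libraries with and without Y-linked transcripts fell unevenly over the groups, the contrast was also read within each class of libraries, as values with no test. In libraries without Y-linked transcripts (1 DKO, 2 p21TKO), both p21TKO values lay below the DKO value for 33 of 45 members, against 36.3% of all genes tested, and both lay above it for 3, against 38.8%. The median difference of the members there was -1.07. In libraries with them (2 DKO, 1 p21TKO), the p21TKO value lay below both DKO values for 20 members, against 31.9% of all genes, and above both for 8, against 32.8%, with a median of -0.15. For the Ces family the medians were -1.33 and -0.12, and for the Akr1 family -1.13 and -0.10. Adh4 and Aldh3a2 were lower in both classes, by differences of -1.08 and -0.71 for Adh4 and -2.35 and -0.45 for Aldh3a2. Ces3a, Ces3b and Ces1f stood at -3.80, -3.08 and -3.83 without and 0.07, 0.12 and 0.10 with Y-linked transcripts.

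**Figure D5:**
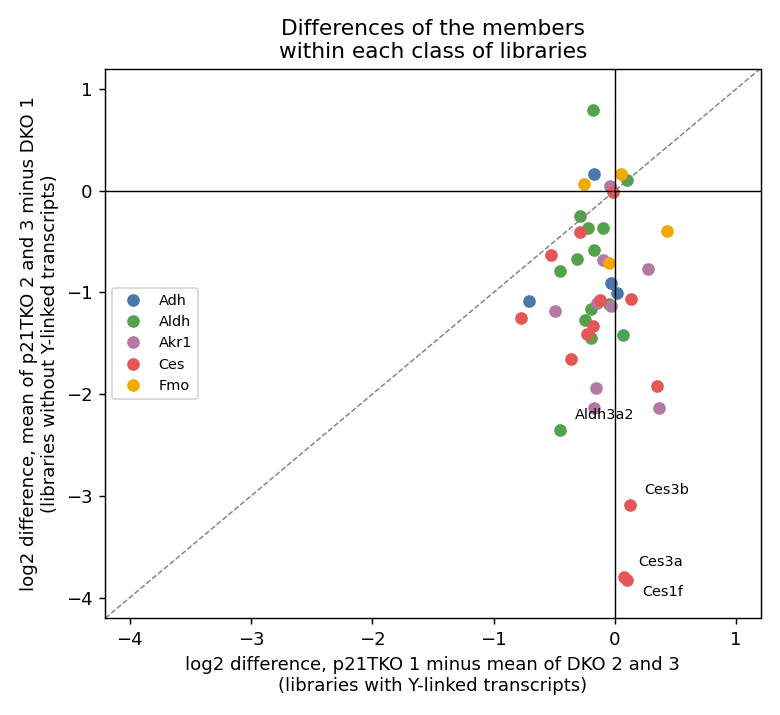
Each point is a tested member (all but 1 are drawn), with its log2(FPKM + 1) difference in libraries with Y-linked transcripts on the horizontal axis and in libraries without them on the vertical axis, and a dashed line of equal values. Ces3a and Ces1f lie near -3.8 on the vertical and 0.1 on the horizontal axis.

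Enzymes that share substrates with these families showed the same direction in part, and 0 genes of these lists passed the limma test. At an unadjusted limma p under 0.05, which 9.38% of all genes tested had in either direction and 5.29% as lower genes, there were 2 of 8 ethanol and acetate partners, 3 of 22 esterases or lipases, 2 of 18 flavin enzymes or oxidoreductases and 1 of 20 regulators, all lower. There were also 3 of 24 retinoid genes and 2 of 17 carbonyl reductases or steroid dehydrogenases, of which 1 in each list was lower. Of 8 tested partners in ethanol and acetate handling, 7 were lower (median difference -0.66), including Cyp2e1, the ethanol-oxidising cytochrome, at 3633, 2902 and 4132 FPKM in DKO and 2338, 2137 and 1030.1 FPKM in p21TKO. Adhfe1, a mitochondrial alcohol dehydrogenase, stood at 26.6, 26.9 and 29.97 FPKM against 19.5, 16.2 and 8.05 FPKM, and in both genes the groups did not overlap. Of 22 other esterases and lipases 18 were lower (median -0.45), and of 18 other flavin enzymes and oxidoreductases 13 were lower (median -0.47). Nceh1, a cholesterol ester hydrolase, stood at 12.3, 8.35 and 8.26 FPKM against 6.19, 2.55 and 4.86 FPKM, and the quinone reductase gene Nqo2 at 15.8, 15.5 and 16.9 FPKM against 14.3, 6.02 and 3.56 FPKM. Of 17 other carbonyl reductases and steroid dehydrogenases 11 were lower (median -0.29). The steroid dehydrogenase gene Hsd3b3 had the smallest p in that list, at 18.6, 17.9 and 22.5 FPKM against 5.42, 3.05 and 1.14 FPKM (-2.43, limma adjusted p = 0.180). Hsd17b13, a lipid droplet protein, was one of the genes with higher values, at 90.8, 121 and 118 FPKM against 173, 258 and 188 FPKM.

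Retinoid genes were mixed, with 14 of 24 lower (median -0.15). Rdh16, a retinol dehydrogenase, stood at 18.8, 10.5 and 13.5 FPKM in DKO and 7.77, 3.80 and 1.02 FPKM in p21TKO, and Lrat, which esterifies retinol, at 0.723, 1.07 and 0.412 FPKM against 3.76, 3.03 and 1.08 FPKM. Lrat passed the filter only through p21TKO, as its DKO mean was under 1 FPKM. Of 20 regulators of these enzymes 11 were lower (median -0.06). Ahr, the dioxin receptor, stood at 10.6, 6.98 and 10.5 FPKM against 3.07, 4.17 and 7.88 FPKM, and Nfe2l2, the regulator of the antioxidant response, at 13.2, 11.1 and 12.1 FPKM against 8.63, 9.10 and 9.81 FPKM.

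Markers of liver zones and of other cells were read beside the members. All 10 tested pericentral hepatocyte genes were lower (median -0.70). The list summed to 4122 to 5594 FPKM in DKO and 1643 to 3480 FPKM in p21TKO. Cyp2e1, given above as an ethanol partner, is in this list and held most of its sum in every library. Of 12 periportal genes, which include the member Aldh1b1 and also Hsd17b13, given above, 8 were lower (median -0.12). Kupffer cell markers (8 of 8 tested) summed to 27.9 to 68.3 FPKM in DKO and to 18.6, 171 and 96.9 FPKM in p21TKO replicates 1 to 3, and endothelial markers (8 of 8) to 11.3 to 19.8 FPKM in DKO and to 7.89, 69.5 and 35.1 FPKM in p21TKO. All 8 genes of each of these lists had higher means in p21TKO, none of them called, and 1 gene of each list averaged under 1 FPKM in one group. The sums were highest in p21TKO replicates 2 and 3 and lowest in p21TKO replicate 1. Stellate cell markers (6 of 8), among them Lrat from the retinoid list, summed to 19.8 to 31.1 and 34.8 to 42.4 FPKM. Biliary markers (1 of 6) summed to 7.003 to 18.5 and 6.91 to 27.3 FPKM. No marker in these lists was at 0 in every library. Their part in the members' differences was not tested.

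For the member with the smallest p in 4 of the families, genes among those with the most similar pattern over the 6 libraries were read out by Pearson's r of log2(FPKM + 1). The like genes were picked for the highest r among the 9538 genes tested, over only 6 libraries. The libraries also shared their depth and composition across genes, so these r values are descriptions. Adh4 was most like Zmym2 (r = 0.997), Fbp1, a gluconeogenesis enzyme (0.992), and Sephs2 (0.991). Aldh3a2 was most like Diaph2 (0.998), the fatty acid hydroxylase gene Cyp4a32 (0.996) and Krcc1 (0.996). Akr1c14 was like 9530068E07Rik (0.998) and Adipor2, an adiponectin receptor (0.997). Ces1d was most like Cyb5b (0.996), Fbxo3 (0.996) and Nr3c1, the glucocorticoid receptor (0.995).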

How the data were processed

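Gene-level FPKM of 6 polyA liver libraries (3 DKO, 3 p21TKO) were used as deposited by the authors. The tools listed in the submitters' processing notes, without roles, are DESeq2 1.20.0, featureCounts 1.5.0-p3, HISAT2 2.0.5, fastp and CASAVA 1.8. The builds listed there, hg38 and GRCh38, are human, but the table's identifiers belong to mouse genes, which leaves the build behind the FPKM unsettled. Gene coordinates and coding sequences come from GENCODE M21 (GRCm38), matched by gene identifier, and promoters from RefSeq. The use of strand in counting is not stated, so reads of antisense or overlapping genes cannot be told apart.

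Groups follow the sample titles. Genes with a mean of at least 1 FPKM were compared with limma 3.58.1 (R 4.3.3, trend, two-sided) on log2(FPKM + 1), with Benjamini-Hochberg adjustment over all genes tested. Differences are on this scale, which understates changes of low genes. FPKM steps gave reads within 0.02 of a whole number for 99.29% to 99.33% of values, and these recovered reads were used with voom as an alternative. The script was tested on simulated data. Named members are, per family, the 4 with the highest mean and the 3 with the smallest p, plus any called, with up to 2 genes for each accompanying list. Members and lists were chosen with earlier results of these data known. Other pseudocounts, filters, scalings, a Y-linked term, a replicate block and leaving out each library were tried. With 3 libraries a group, the smallest two-sided exact permutation p is 0.1. The values of 1 member and of 1 gene of similar pattern are not reported here, though both stayed in the fit and the counts.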

Additional observations from a re-analysis of the deposited data

How the results depend on the processing

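Under the alternatives run, 0 members were called except without p21TKO replicate 1. The number of genes called, 7, became 4 with a mean of at least 5 FPKM, 1 with no filter and 1 with voom on recovered reads. Leaving out each library in turn gave 1 to 495 called genes and 0 to 7 called members; the 495 and the 7 came without p21TKO replicate 1, and the cause was not tested. The replicate numbers are shared by the groups, but the labels give no pairing. Same-numbered libraries deviated from their group means with correlations of -0.44, -0.49 and -0.07. Same-numbered libraries also differed in whether they held Y-linked transcripts, so these correlations cannot decide whether the numbers mark a pairing. With the replicate block 0 genes and 0 members were called. In that fit 3 members had an unadjusted limma p under 0.05, for which no share over all genes is given. The Aldh median moved to -0.27 with no filter, which brings in members near 0.

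Of the values of named members under the alternatives, 434 kept their direction and side of the threshold, 5 newly passed it and 19 changed sign. Fmo5 changed sign to -0.0024 and -0.0011 with pseudocounts of 0.1 and 0.5 and to -0.0494 when totals were taken without mitochondrial genes, where Adh5 stood at -0.0202. With a term for Y-linked transcripts Adh5 stood at -0.00605, Akr1a1 at 0.0012 and Fmo4 at -0.0916. Leaving out each library gave -0.0352 to 0.12 for Adh5, -0.57 to 0.0354 for Aldh1l1, -0.13 to 0.0909 for Akr1a1, -0.53 to 0.62 for Fmo5, -0.62 to 0.22 for Fmo1 and -0.11 to 0.64 for Fmo4. The cause of these sign changes was not tested. Depth limits the members below 1 FPKM, such as Adh6b, with 1 to 5 reads in each library.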
